A study of Mus musculus with 2 samples.

Results

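Messenger RNAs of 10 genes that act in the nucleolus or in transcription by RNA polymerase I were followed across mouse embryonic stem cells: Ncl, Npm1, Fbl, Nop56, Nop58, Polr1a, Polr1b, Ubtf, Nolc1 and Dkc1. They were chosen by symbol, and each symbol matched 1 of the 55415 features. Embryonic stem cells (mESC) are pluripotent cells that self-renew in culture, and a few of them at a time enter a state resembling the 2-cell embryo (2C-like), marked by Zscan4 transcripts and by the endogenous retrovirus MERVL. All cells here came from a line carrying GFP under a MERVL promoter and the nuclear marker H2B-mIFP; whether the line is 1 clone is not given in the labels. Cells came as a MERVL-GFP positive and a MERVL-GFP negative library, 1 of each, and the labels give both the same line and no treatment or time; they do not say how the reporter was used to sort cells. The positive and negative library are called so below.

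The nucleolus is the nuclear body in which ribosomal RNA is transcribed by RNA polymerase I, processed, modified and assembled with ribosomal proteins. The upstream binding factor Ubtf and the catalytic subunits Polr1a and Polr1b serve transcription, Fbl, Nop56 and Nop58 are the core of box C/D particles that methylate ribosomal RNA, and Dkc1 is the pseudouridine synthase of box H/ACA particles, with Nolc1 as a chaperone of both kinds. Ncl and Npm1 are abundant nucleolar proteins of early and late ribosome assembly. Nucleolin is also known, with LINE1 RNA and Trim28, to hold Dux, an activator of the 2C-like state, silent in mESC.

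Nop56 and Nop58 are partners in the same particle and had opposite signs in both main comparisons below, so their promoters are shown (RefSeq, GRCm38.p6, 250 bases before to 50 after the start site, 5′ to 3′ on the gene's strand). Capitals mark GGGCGG (GC box) and CCAAT on either strand. The Nop56 window is chr2:130274162-130274461 on the plus strand and the Nop58 window chr1:59684756-59685055 on the plus strand.
Nop56: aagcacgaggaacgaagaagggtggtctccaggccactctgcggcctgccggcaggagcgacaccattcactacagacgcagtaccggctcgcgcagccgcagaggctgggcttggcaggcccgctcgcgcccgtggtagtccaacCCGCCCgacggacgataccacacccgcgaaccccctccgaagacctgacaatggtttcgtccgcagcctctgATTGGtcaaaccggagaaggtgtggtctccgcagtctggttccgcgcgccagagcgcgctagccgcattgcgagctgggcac
Nop58: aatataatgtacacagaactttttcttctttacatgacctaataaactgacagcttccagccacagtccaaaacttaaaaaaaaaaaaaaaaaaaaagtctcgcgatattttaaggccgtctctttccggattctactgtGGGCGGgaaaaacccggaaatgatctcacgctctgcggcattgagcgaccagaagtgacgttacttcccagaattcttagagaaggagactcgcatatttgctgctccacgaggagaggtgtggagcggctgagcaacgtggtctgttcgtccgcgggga
The start site of each window is the one its table uses, and it lies a short way inside the outermost start of the gene. Both windows hold 1 GC box, whose left end is at -104 from that site in Nop56 and -110 in Nop58, and the Nop56 window also holds a CCAAT match on the reverse strand at -32. The GC box occurs in 35.7% of all 32851 promoter windows and CCAAT in 37.4%. The Nop56 window has 66.0% G and C bases and the Nop58 window 45.3%. CACGTG, the E-box bound by Myc, matched none of the 13 windows of the 8 listed genes (7.15% of all windows hold it), which says only that these letters are not in these windows.

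Gene positions are on GRCm38.p6. Ncl (ENSMUSG00000026234) is at chr1:86344719-86359455, Nop58 (ENSMUSG00000026020) at chr1:59684961-59711510, Nop56 (ENSMUSG00000027405) at chr2:130274367-130279313 and Polr1b (ENSMUSG00000027395) at chr2:129100970-129128060. Polr1a (ENSMUSG00000049553) is at chr6:71909053-71979435, Fbl (ENSMUSG00000046865) at chr7:28168893-28179269, Npm1 (ENSMUSG00000057113) at chr11:33152498-33164142 and Ubtf (ENSMUSG00000020923) at chr11:102304560-102323649. Nolc1 (ENSMUSG00000015176) is at chr19:46075847-46085543 and Dkc1 (ENSMUSG00000031403) at chrX:75095854-75109776. The feature table also holds Fbl-ps2, a pseudogene named for Fbl, with 731 UMIs in the positive and 832 in the negative library, and reads could have been split between them.

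The positive library held 4603 cells with 138364094 counts and the negative library 3832 cells with 156406894 counts, read here as molecules (UMIs). The cell filter kept 4596 and 3832 cells, with median depths of 29554.5 and 39099.5 UMIs, ribosomal protein shares of 22.8% and 26.1% and median mitochondrial shares of 2.56% and 1.60%. All 7 embryonic stem markers were detected in both libraries. Fibroblast markers summed to 12.8 and 3.13 CPM (UMIs scaled to the library total), with Col3a1 and Postn at 0 in the negative library, and trophoblast markers to 11.1 and 4.40 CPM. Primitive endoderm markers, of which none was at 0, summed to 230 and 116 CPM. The libraries share 3 barcodes. Each group is 1 library, so no difference has a replicate check and no test was run. Library, batch and group cannot be told apart, and the part of depth or of the marker lists in any difference was not tested. Intervals are 95% intervals for counting error only.

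Between the libraries, none of the 10 genes differed by 1.5-fold, the size used here to call a difference, in either direction. Among all 8042 genes with at least 10 CPM in a library and 50 UMIs, 17.6% were higher in the positive library by that size and 4.89% lower. Log2 differences of CPM + 1 ran from -0.23 to 0.50 over the 10 genes, with a median of 0.23 against 0.14 for all 8042 genes. All 10 genes passed the filter on low values. Scaling by trimmed means (TMM) moved the all-gene median from 0.14 to -0.16 and the share of calls that were higher from 78.3% to 34.9%, so positions relative to other genes are given below.

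The transcription machinery was uneven. Polr1a, the largest subunit of the polymerase, stood at 52.9 CPM (95% interval 51.7 to 54.2) among positive-library cells, compared with 37.1 CPM (36.1 to 38.0) among negative-library cells, a log2 difference of 0.50. This was the highest value of the 10, and it stood above the upper quartile (0.39) of the 1997 genes whose abundance lay within 1.5-fold of its own. Polr1b, the second largest subunit, stood at 21.0 CPM (20.2 to 21.7) and 18.1 CPM (17.5 to 18.8), a difference of 0.20 that was close to the median of 0.22 for genes of like abundance. Ubtf, which bends and marks the ribosomal DNA promoter, had 119 CPM (117 to 121) and 117 CPM (116 to 119), with overlapping intervals. Under TMM the differences of Polr1b (-0.08) and Ubtf (-0.27) had the opposite sign, and Polr1a stayed higher at 0.22.

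Box C/D members went different ways. Nop56 was higher in positive-library cells, 329 CPM (326 to 332) compared with 240 CPM (237 to 242), a log2 difference of 0.45. Nop58 was lower, 558 CPM (554 to 562) compared with 656 CPM (652 to 660), a difference of -0.23. Nop56 was above, and Nop58 within, the quartiles of genes of like abundance (-0.33 to 0.14 and -0.39 to 0.11). Fbl, the methyltransferase itself, had 183 CPM (181 to 186) and 186 CPM (184 to 188), with overlapping intervals. These signs of Nop56 and Nop58 were the same under all 16 alternatives.

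Of the box H/ACA pair, Dkc1 was at 337 CPM (334 to 340) in positive-library and 274 CPM (272 to 277) in negative-library cells, a log2 difference of 0.30. Nolc1 had 288 CPM (286 to 291) and 242 CPM (239 to 244), a difference of 0.25. Both stood above the upper quartiles of genes of like abundance, 0.13 and 0.15, although under TMM they came to 0.00 and -0.04. Of the abundant assembly proteins, Ncl had 4039 CPM (4029 to 4050) and 3230 CPM (3222 to 3239), a difference of 0.32. Npm1 had 5951 CPM (5938 to 5964) and 6543 CPM (6530 to 6555), a difference of -0.14. Under TMM Ncl was at 0.03 and Npm1 at -0.43. Only 56 genes were as abundant as Ncl and 24 as abundant as Npm1. Those of Ncl had a median of -0.24, so Ncl stood 0.57 above it, while Npm1 was 0.03 above its own. Ncl, at 0.32, was closer to the median of all genes tested, 0.14.

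**Figure D1:**
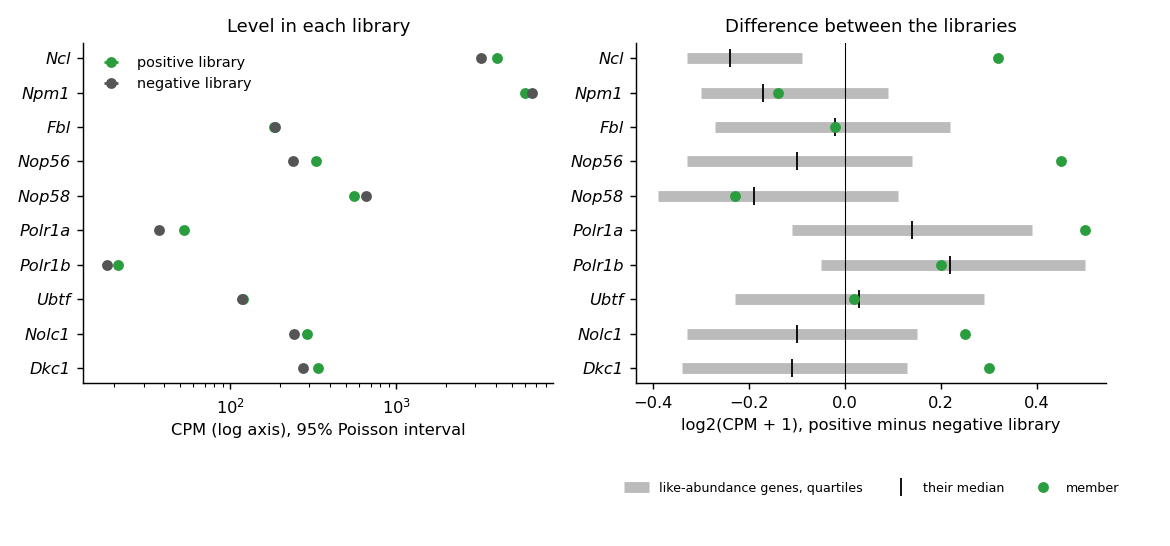
Left, level of each gene in CPM on a log axis in the positive library (green) and the negative library (grey), 1 library each, with 95% Poisson intervals that are mostly smaller than the points. Right, log2 difference of CPM + 1, positive minus negative (green points), with the quartiles (grey bars) and median (tick) of genes of like abundance; Ncl, Nop56, Polr1a, Nolc1 and Dkc1 lie to the right of the bars and the other 5 genes inside them.

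Counted per cell rather than as CPM, most members were fewer in the positive library, whose cells held fewer UMIs. Ncl had a mean of 122 UMIs per positive-library cell against 132, and Npm1 had 179 against 267. Nop58 had 16.8 against 26.8. Nop56 (9.90 and 9.79) and Polr1a (1.59 and 1.51) were the exceptions with more UMIs per positive-library cell. Single cells of the libraries overlapped widely once each was thinned at random to 10000 UMIs: Ncl had quartiles of 26 to 49 (positive) and 22 to 40 (negative), and Npm1 47 to 70 and 55 to 74. Depth moved with some values: in cells of 10000 to 20000 UMIs the difference of Ncl between the libraries was 0.07, that of Dkc1 0.08 and that of Polr1b -0.18, from 691 and 131 cells. In cells of 20000 to 40000 UMIs they were 0.46, 0.24 and 0.22. Ubtf was at -0.37 in the shallower and 0.04 in the deeper range, and its sign was opposite to that in all cells under 6 of 16 alternatives.

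Within the positive library, cells were divided by the UMIs of Zscan4a to Zscan4f among 10000 thinned UMIs. A Zscan4 UMI was present in 2432 of 4402 cells there, or 55.2% (exact 53.8 to 56.7), and in the negative library, which should lack the state, in 10 of 3824, or 0.262% (0.125 to 0.480). The classes with 0, 1 to 4, 5 to 19 and 20 or more Zscan4 UMIs held 1970, 1564, 630 and 238 cells. They are ranges and not cell types, with 95 cells at 15 to 19 UMIs and 48 at 20 to 24. By construction Zscan4 went from 32.5 to 4071 CPM. GFP, which did not define these classes, went from 123 to 471 CPM. The lowest class thus still held Zscan4 UMIs before thinning. Below, cells without Zscan4 or GFP UMIs, also called Zscan4-free or GFP-free, are those with 0 after thinning. Median depth was lower in each class than in the one before, at 33015, 30599, 23925.5 and 18813.5 UMIs. Between the outer classes, summed embryonic stem markers were at 15469 and 7270 CPM, G2/M genes at 8891 and 11066 CPM and endoderm markers at 254 and 75.7 CPM, and the median mitochondrial share was 2.35% in the lowest and 3.43% in the highest class. Cells with at least 3 primitive endoderm UMIs made up 15.5% of the lowest, 16.5% of the 5 to 19 and 7.14% of the highest class.

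In cells with 20 or more Zscan4 UMIs, set against cells with 0, Ubtf was the 1 gene of the 10 that was lower by 1.5-fold, and none was higher. Among 8558 genes tested, 23.2% were lower and 19.4% higher by that size in all cells. Their median log2 difference was -0.31, against -0.14 for all genes tested, and 8 of the 10 lay below that all-gene median. Against genes of like abundance, Nop56, Nolc1, Dkc1 and Fbl stood above the median, by 0.73, 0.43, 0.24 and 0.08, Polr1a was level with it (-0.02), and the other 5 stood at -0.13 to -0.50 from it. Which genes passed the limit depended on the cells and scaling. Under TMM Nop58 (-0.62) was also lower by that size, where 26.3% of all genes were. In cells at or below the median of the G2/M list Ncl (-0.67) and Nop58 (-0.68) were lower beside Ubtf, where 30.5% of all genes were. In cells without GFP UMIs Dkc1 (-0.61) was lower beside Ubtf, where 24.7% of all genes were. With the upper class of those cells at 5 or more Zscan4 UMIs, Polr1b (-0.59) was the 1 gene of the 10 past the limit, against 11.3% of all genes. The Polr1b value rests on 25 UMIs from cells with 5 to 19 Zscan4 UMIs and 10 from cells with 20 or more. Ubtf was inside the limit when that wider class was used, at -0.57 in all cells and -0.44 in cells without GFP UMIs.

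Ubtf had 129 CPM (126 to 132) with 0 Zscan4 UMIs, 120 CPM (117 to 123) with 1 to 4, 90.6 CPM (86.0 to 95.3) with 5 to 19 and 73.3 CPM (65.8 to 81.5) with 20 or more. No neighbouring classes overlapped in their intervals, and the highest class was at a ratio of 0.569 (0.509 to 0.634) to the lowest, a log2 difference of -0.80. Genes as abundant as Ubtf had quartiles of -0.68 and 0.08. The value was -0.62 in cells of 10000 to 20000 UMIs, -0.80 in cells of 20000 to 40000 UMIs and -0.78 in the cells without GFP UMIs, of which 28 were in the upper class. Polr1a (53.0, 54.0, 51.4 and 45.2 CPM over the classes) had overlapping intervals between all neighbours. Polr1b had 22.3, 21.1, 16.8 and 17.3 CPM, with overlap between all neighbours except the middle pair.

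The opposite signs of the box C/D partners were seen again. Nop58 had 601 CPM (595 to 607), 554 CPM (548 to 561), 450 CPM (440 to 461) and 406 CPM (388 to 424) from the lowest to the highest Zscan4 class, a log2 difference of -0.57 that lay just inside the 1.5-fold limit. It was -0.45 in cells of 20000 to 40000 UMIs and -0.12 in cells of 10000 to 20000 UMIs, where that of Nop56 was 0.32. Nop56 had 316 CPM (312 to 321), 331 CPM (326 to 336), 344 CPM (335 to 353) and 385 CPM (368 to 403), a difference of 0.28. Nop56 was thus highest where Zscan4 was highest, while genes of its abundance had a median of -0.44 and an upper quartile of -0.12. Nop58, at -0.57, was within the quartiles of genes of its own abundance (-0.66 to -0.09), so of the pair only Nop56 stood outside them. In cells at or below the median of the G2/M list, with 70 in the upper and 1141 in the lower class, the sign of Nop56 turned, to -0.22. In cells above that median it was 0.39. Fbl had 190, 184, 171 and 157 CPM, and only the middle pair of classes had separate intervals.

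Nolc1 was between 283 and 299 CPM in all 4 classes, and its difference between the outer classes was 0.02, against a median of -0.41 for genes of like abundance. That value was not stable: it ran from -0.35 in cells at or below the G2/M median to 0.48 in cells of 10000 to 20000 UMIs, and had the opposite sign in 5 of 21 alternatives. Dkc1 had 346, 332, 324 and 300 CPM, a difference of -0.21 between the outer classes, with a median of -0.44 for genes of like abundance. In cells without GFP UMIs Dkc1 was at 231 CPM (193 to 274, 28 cells) and 353 CPM (346 to 359). Ncl had 4165 CPM (4149 to 4180), 4109 CPM (4091 to 4127), 3680 CPM (3651 to 3710) and 3130 CPM (3079 to 3181), a difference of -0.41. Npm1 had 6144 CPM (6125 to 6163), 6050 CPM (6028 to 6072), 5441 CPM (5405 to 5477) and 4687 CPM (4626 to 4750), a difference of -0.39. Both were lower in each class than in the one before. Both also varied with depth, with a Pearson correlation to the UMIs of the cell of 0.33 for Ncl and 0.30 for Npm1 over 4402 thinned cells. In cells of 10000 to 20000 UMIs (137 and 146 cells) the Zscan4 difference of Ncl was 0.08 and that of Npm1 -0.19; in cells of 20000 to 40000 UMIs (101 and 1374 cells) they were -0.25 and -0.27. In cells at or below the G2/M median Ncl was at -0.67 and Npm1 at -0.38. The part of depth in these differences was not tested.

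**Figure D2:**
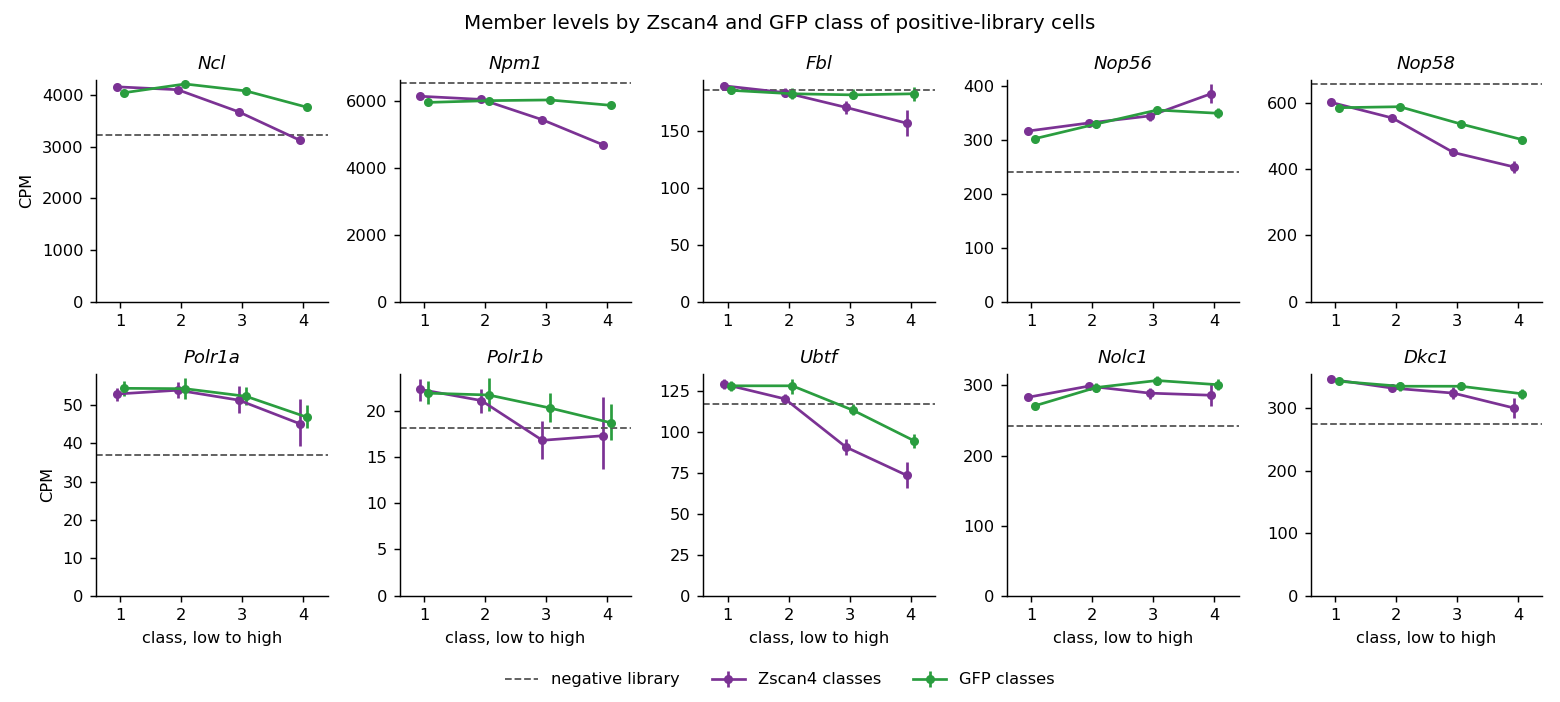
Level of each gene in CPM (axes from 0) in the 4 classes of positive-library cells made by thinned Zscan4 UMIs (purple; 0, 1 to 4, 5 to 19, 20 or more) and by thinned GFP UMIs (green; 0, 1, 2 to 4, 5 or more), with 95% Poisson intervals; the dashed line is the negative library. Ubtf and Nop58 are lower in the highest than in the 0 class of both series, and Nop56 in the highest Zscan4 class, at 385 CPM, is above its level in all other classes drawn.

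**Figure D3:**
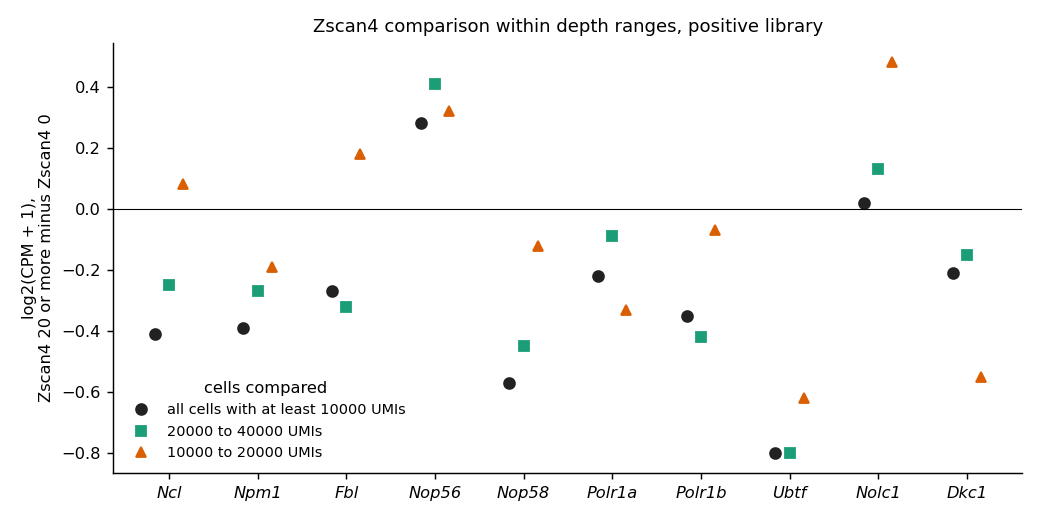
Log2 difference of CPM + 1 between positive-library cells with 20 or more and with 0 thinned Zscan4 UMIs, for all cells with at least 10000 UMIs (black circles) and within ranges of cell depth (green squares, orange triangles). Ubtf stays between -0.80 and -0.62 and Nop56 between 0.28 and 0.41, whereas Ncl, Npm1, Fbl, Nop58, Polr1b and Nolc1 are higher in the shallowest cells than in all cells (Nop58 at -0.12 and Polr1b at -0.07), and Polr1a and Dkc1 are lower, at -0.33 and -0.55.

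Counts per cell showed larger gaps, since cells with much Zscan4 held fewer UMIs in all. From the lowest to the highest Zscan4 class, mean UMIs per cell were 140 and 61.7 for Ncl, 207 and 92.4 for Npm1, 20.2 and 7.99 for Nop58 and 4.34 and 1.45 for Ubtf. For Nop56 they were 10.6 and 7.59. Thus Nop56 was higher as a share of UMIs and lower as a number of UMIs per cell.

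GFP divided the same cells less sharply. At least 1 thinned GFP UMI was present in 2725 of 4402 cells, or 61.9% (60.5 to 63.3), against 18 of 3824 in the negative library. Classes with 0, 1, 2 to 4 and 5 or more GFP UMIs held 1677, 828, 1135 and 762 cells, with 263 cells at 4 and 183 at 5, and median depths of 32428, 31573, 28733 and 24771 UMIs. None of the 10 genes differed by 1.5-fold between the outer classes, where 7.86% of 8191 genes were higher and 9.21% lower. Their median log2 difference was -0.10 against -0.12 for all genes tested. Ubtf again had the lowest value, with 128 CPM (125 to 131) at 0 GFP UMIs, 128 CPM (123 to 132) at 1, 113 CPM (110 to 117) at 2 to 4 and 94.4 CPM (90.2 to 98.8) at 5 or more, a difference of -0.43. Nop58 (-0.26) was lower and Nop56 (0.21) and Nolc1 (0.15) were higher in the GFP-rich cells. In cells at or below the G2/M median Nop56 was at -0.01 and Nolc1 at 0.05, and in cells of 10000 to 20000 UMIs Nop56 was at 0.00, Nolc1 at 0.43 and Dkc1, which was at -0.09 in all cells, at -0.54. Ubtf passed the limit, at -0.59, when cells were classed by their unthinned GFP share. The share of all genes past the limit under that classing is not given here, so this call has no background beside it. Npm1 was at -0.02 and Fbl at -0.03, below and above the medians of genes of like abundance (0.08 and -0.14). TMM moved the all-gene median to -0.01 and the share of calls that were higher from 46.1% to 62.8%; under it Ncl, Npm1, Fbl and Dkc1 had the opposite sign.

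Zscan4 and GFP were then each compared in cells with 0 thinned UMIs of the other, which does not fully separate them. In cells with 0 thinned Zscan4 UMIs, Zscan4 was at 40.4 CPM with 1 or more GFP UMIs and at 25.6 CPM with 0. In cells with 0 thinned GFP UMIs, GFP was at 67.2 CPM with 5 to 19 Zscan4 UMIs, 59.0 CPM with 20 or more and 26.0 CPM with 0. Among the 1970 cells without Zscan4 UMIs, the difference of Ubtf between 160 cells with 5 or more GFP UMIs and 1043 with 0 was -0.18, compared with -0.43 in all cells. Nop58 came to -0.13 there, and Nop56 (0.26) and Nolc1 (0.20) were about as far up as in all cells. Among cells without GFP UMIs, Zscan4 was compared at 5 or more against 0 (89 and 1043 cells), and Ubtf was at -0.44, Nop58 at -0.46, Polr1b at -0.59 and Nop56 at 0.20. Whether the GFP and Zscan4 differences themselves differ was not tested.

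Cells of the positive library with 0 thinned Zscan4 UMIs were also set against the negative library. They were not cleared of Zscan4: before thinning it was at 32.5 CPM, against 0.627 CPM in the whole negative library. Summed 2C-like markers, Zscan4 included, were at 146 and 1.36 CPM. None of the 10 genes was past 1.5-fold, where 12.1% of 7855 genes were higher and 2.88% lower. This comparison shares the negative library and part of the cells with that of the whole libraries, so a likeness between them is built in and the values are only listed: Polr1a was at 0.50, Nop56 at 0.40, Ncl at 0.37, Dkc1 at 0.34, Polr1b at 0.28, Nolc1 at 0.23 and Ubtf at 0.14. Fbl was at 0.03, Npm1 at -0.09 and Nop58 at -0.13. Against the negative library (3230 CPM), Ncl was higher in Zscan4-free cells (4165 CPM) and lower in the cells richest in Zscan4 (3130 CPM). These classes differ in depth, and in cells of 10000 to 20000 UMIs the difference of Ncl between Zscan4-free cells and the negative library was -0.02. TMM moved the all-gene median of this comparison from 0.15 to -0.17 and the share of calls that were higher from 80.7% to 29.3%.

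The wider ribosome biogenesis machinery was described from 7 lists, and the Myc network from 1 more, with 119 genes in the feature table, the 10 included, of which 116 passed the filter in the Zscan4 comparison. Of these, 17 were lower by 1.5-fold and 5 higher in the cells with 20 or more Zscan4 UMIs, against backgrounds of 23.2% and 19.4% of all genes. The Myc network, which are transcription factors, gave 4 of the 17. Myc and Mnt among the lower genes and Taf1c among the higher passed the filter of 10 CPM only through the group where they were high, so these counts support nothing by themselves. The median over all 119, with no filter, was -0.22. Between the libraries 1 of 116 was higher (Taf1c, 10.2 and 5.65 CPM, 0.75, which passed the filter only through the positive library) and 1 lower (Polr1h, -0.61), against backgrounds of 17.6% and 4.89%. Between GFP classes none was higher and 4 were lower (Myc, which passed the filter only through the GFP-free cells, Mga, Mycn and Tcof1), against 7.86% and 9.21%.

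Polymerase I factors had differences of both signs in the Zscan4 comparison. Tcof1, the treacle protein that recruits factors to ribosomal DNA, was at 85.1 CPM in the Zscan4-rich and 191 CPM in the Zscan4-free cells (-1.15). Taf1d, a subunit of the selectivity factor SL1, was at 557 and 252 CPM (1.14), and Taf1c, another SL1 subunit, named after its value was seen, at 16.2 and 9.75 CPM (0.68), so that it passed the filter only through the Zscan4-rich cells. The initiation factor Rrn3 was at 69.1 and 59.6 CPM (0.21). With Ubtf, 2 of the 9 factors that passed the filter were lower and 2 higher, Taf1c included, shares near the 23.2% and 19.4% of all genes. Of 13 polymerase subunits, 1 was higher (Polr2l, 1.15) and 1 lower (Polr2e, -1.02), both shared with other RNA polymerases, against the same 19.4% and 23.2% of all genes. Polr1c (0.21), Polr1d (-0.57) and Polr1e (-0.27) were not past the limit, and the subunit median was -0.42.

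Of the 5 box C/D genes 1 was lower, against 23.2% of all genes: Rrp9, which belongs to the U3 particle (-0.64), and Snu13, the shared core protein, was at -0.16. Of the 7 box H/ACA genes, the core proteins Gar1 (65.7 and 125 CPM, -0.92) and Nhp2 (227 and 407 CPM, -0.84) were lower, Nop10 was at -0.35 and none was higher, against 23.2% of all genes lower and 19.4% higher. Their partner Dkc1, at -0.21, was inside the limit in all cells and past it, at -0.61, in cells without GFP UMIs. Of the granular component and chaperone list, 3 of 8 were lower, against 23.2% of all genes: Npm3 (-0.78), Gnl3l (-1.04) and Rrp1b, the last named after its value was seen. Gnl3, or nucleostemin, was at -0.36, Surf6 at 0.24 and Nop53 at 0.01.

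Small subunit processome genes were spread around the all-gene median, at a median of -0.08, with Nop14 higher (0.64), Bms1 (-0.64) and Emg1 (-0.60) lower, and 33 of 36 inside the limit, where 19.4% of all genes were higher and 23.2% lower. Heatr1 (-0.31), Nol6 (-0.51), Wdr43 (0.12) and Nat10 (-0.41) were among those inside. Large subunit assembly genes had a median of -0.15, with Nip7 higher (430 and 242 CPM, 0.83), Wdr12 (-0.96) and Rsl24d1 (-0.94) lower of 32 genes, against the same shares, and Nop2 (0.54), Bop1 (0.05), Pes1 (-0.05) and Ddx21 (0.12) inside the limit. Wdr12 and its complex partners Bop1 and Pes1 were thus at different values.

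The Myc network, whose best known targets include nucleolar genes, had a median of -0.56 over all 8 genes with no filter. Of these, 6 passed the filter and 4 were lower, against 23.2% of all genes, but Myc and Mnt passed only through the Zscan4-free cells. Mycn was at 17.3 CPM in Zscan4-rich and 39.5 CPM in Zscan4-free cells (-1.15), Myc at 6.82 and 15.6 CPM (-1.08, from 32 and 1031 UMIs) and Mga, a Max partner that represses, at 35.6 and 92.0 CPM (-1.34). Mnt (-0.65) was the other lower gene, and Mlx was at -0.07. Between GFP classes Myc was at -1.07, Mycn at -0.68 and Mga at -0.97. Between the libraries the same list had a median of -0.15. None of the 6 genes that passed the filter there was past the limit, where 17.6% of all genes were higher and 4.89% lower. Myc was at 12.3 CPM in the positive and 17.6 CPM in the negative library.

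**Figure D4:**
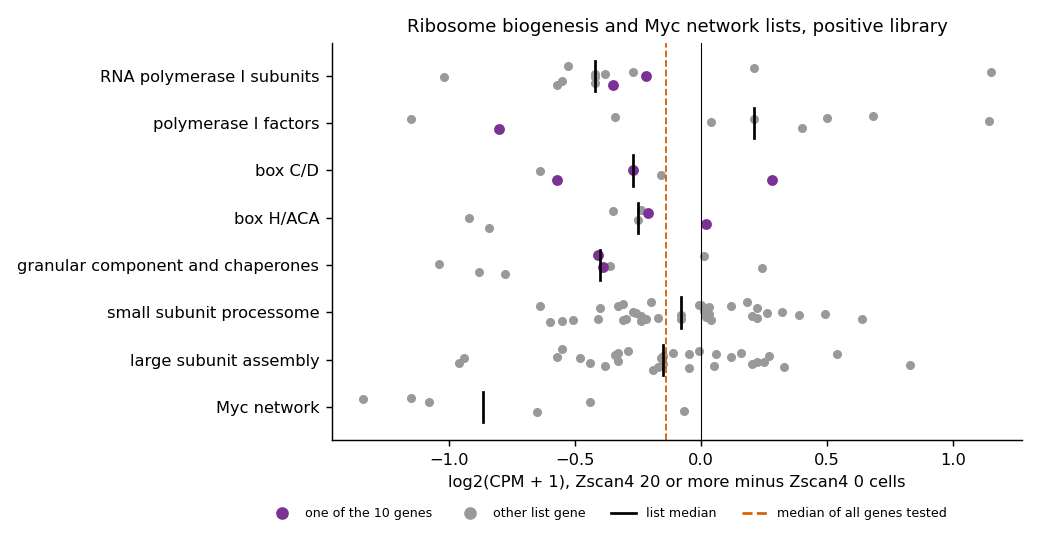
Log2 difference of CPM + 1 between positive-library cells with 20 or more and with 0 thinned Zscan4 UMIs for the genes of the ribosome biogenesis lists and the Myc network that passed the filter; purple points are the 10 genes, grey points other list genes, black bars list medians and the dashed line the median of all genes tested (-0.14). The bars cover only the genes drawn (the Myc network is at -0.86 over 6 genes, and at -0.56 over all 8), and polymerase I factors span from -1.15 to 1.14.

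Ribosomal RNA itself was touched on by loci that take such reads. Rn18s-rs5, named for 18S ribosomal RNA, had 2306 CPM in positive-library and 1117 CPM in negative-library cells, a ratio of 2.06 (2.05 to 2.08). It had 3901 CPM in cells with 20 or more Zscan4 UMIs and 2018 CPM in cells with 0, a ratio of 1.93 (1.90 to 1.96), and 2489 and 2099 CPM in the outer GFP classes. AY036118 had 15.5 and 12.2 CPM in the libraries, and 23.5 and 13.6 CPM in the outer Zscan4 classes. Ribosomal RNA carries no regular poly(A) tail, and how RNA was captured is not stated, so these values are not read as its level or synthesis.

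Correlations between the 10 genes were mostly low among cells. Over 4402 thinned positive-library cells, the 45 pairs had a median Pearson correlation of 0.03 (range -0.10 to 0.43), and over 3824 negative-library cells 0.01 (-0.09 to 0.29). Ncl and Npm1 were the closest pair in each library, at 0.43 and 0.29. Ncl with Nop58 was at 0.35 and 0.22, and Ncl with Nolc1 at 0.28 and 0.20. All cells in such a comparison share 1 library and were thinned to 10000 UMIs, which did not remove the relation to depth. Thinned Ncl, Npm1, Nop58 and Nolc1 had Pearson correlations of 0.33, 0.30, 0.22 and 0.09 with the UMIs of the positive-library cell. The part of depth in the pair values was not tested. Weak values in sparse counts are no finding: Polr1b had a mean of 0.201 and Polr1a of 0.517 thinned UMIs per positive-library cell.

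Profiles were compared over 8 cell classes, the negative library and 7 positive-library classes by Zscan4 and GFP with at least 50 cells. Of 2869 genes with at least 50 CPM, those nearest to the mean profile of the 10 were Hsp90ab1, Mrps30, Gga2, Gdi2 and Chordc1, with root mean square differences of 0.023 to 0.038 in log2 units. These 5 were picked for their nearness. The 10 genes lay at 0.061 (Ncl) to 0.231 (Nop56) from their own mean. Taken singly, a comparison added after the values were seen, Nop56 was nearest to Las1l, a gene of large subunit assembly, at 0.036, and Ubtf to Lactb2, at 0.032. Nearest to the other members, in the order given at the start, were Mtap, Psmb4, Fam50a, Chchd10, Bag4, Zfp961, Rybp and Rpl4. Of all these nearest genes only Las1l is on a ribosome biogenesis list, and each was the best match of many genes.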

How the data were processed

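Whole-number counts per gene and cell were deposited by the authors as sparse matrices. FastQC 0.11.2, Trim Galore 0.6.4, STAR 2.7.6a and build mm10 are named per the submitters' processing notes, without their roles; the counter, annotation and cell calling are not given in the sources used here. Barcodes are 16 bases long, as in droplet kits that count molecules, so counts are read as UMIs; the labels' extraction text describes a bulk kit. Cells with at least 1000 UMIs, 500 genes and at most 20% mitochondrial UMIs were kept. UMIs were summed per library or class and scaled to CPM, and log2 differences use CPM + 1. For classes, 10000 UMIs were drawn from each cell, so that 194 positive-library and 8 negative-library cells with fewer were not classed; class levels use all UMIs of the cells. No doublet caller was used. Free RNA was not removed.

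Poisson, exact binomial (Clopper-Pearson) and exact conditional ratio intervals are at 95%. No test was run, since each group has 1 library. Genes of like abundance are all genes within a factor of 1.5 in CPM. The genes named are the 10, a fixed choice of list genes, the highest and lowest of each list in a comparison, and the 5 nearest the mean profile. Taf1c between Zscan4 classes, Rrp1b and the genes nearest to single members fall outside this rule and were named after their values were seen. The 10 genes and the lists were chosen with earlier results of these data known. The size rule was tested on simulated data. Alternatives changed the filter, scaling, pseudocount, classes, depth range and cells. Tools were edgeR 4.0.16 (TMM only) in R 4.3.3, and scipy 1.17.1, numpy 2.4.6 and pandas 2.3.3 in Python 3.11.15. Of 55415 feature IDs, 52081 are in the GENCODE reference annotation. RefSeq promoters were found for 8 of the 10 genes.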

Additional observations from a re-analysis of the deposited data

How the results depend on the processing

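No paired analysis was possible because neither group has more than 1 library; none could be left out either. Scaling decided the sign of 3 medians over the 10 genes. Between the libraries TMM and median of ratios each gave -0.06, against 0.23. Between GFP classes it was 0.02 and 0.00, against -0.10. Between Zscan4-free positive-library cells and the negative library it was -0.05 and -0.07, against 0.25, and -0.03 in cells of 10000 to 20000 UMIs, where 146 and 131 cells were left. The 2 scalings move all genes together by construction; the cause of the depth value was not tested. The Zscan4 median kept its sign in all 21 alternatives, from -0.37 to -0.09.

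The counts past the limit depended on its size. At a looser limit, 0.32 on the log2 scale, 3 of the 10 genes were higher between the libraries (34.3% of all genes) and 4 in Zscan4-free cells against the negative library (31.5%), while 5 were lower in Zscan4-rich cells (38.6%) and 1 in GFP-rich cells (26.2%). At 2-fold the 1 gene lower in Zscan4-rich cells became 0 (8.74% of all genes), and under TMM it became 2 (26.3%). The depth ranges of 10000 to 20000 UMIs and the class of 5 or more Zscan4 UMIs were chosen after seeing the data. For Polr1b, with 81 UMIs in the highest Zscan4 class, depth limits the precision most.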

Other observations

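Cells with at least 3 thinned UMIs of the endoderm markers, 646 in the positive and 248 in the negative library, were set beside the other cells of their library. Nolc1 was higher in them, at 356 CPM (348 to 364) against 278 CPM (275 to 281) among positive-library cells and 277 CPM (267 to 287) against 239 CPM (237 to 242) among negative-library cells. Nop56 was also higher, at 369 against 320 CPM and 271 against 238 CPM. Dkc1 was lower, at 270 CPM (263 to 277) against 348 CPM (345 to 351) and 243 CPM (234 to 253) against 276 CPM (274 to 279). Ncl, Npm1, Nop58 and Ubtf were lower in both libraries as well, and so was Fbl, at 164 against 188 CPM and 178 against 187 CPM, where the intervals of the last pair overlap. Polr1a was at 42.1 CPM (39.3 to 45.1) against 54.7 CPM (53.4 to 56.1) among positive-library cells, and at 35.1 CPM (31.6 to 38.8) against 37.2 CPM (36.2 to 38.2), with overlapping intervals, among negative-library cells. Polr1b was at 21.8 against 20.9 CPM and 18.3 against 18.1 CPM, with overlapping intervals. Other genes were not examined for this split. Ubtf had 103 and 122 CPM (positive library) and 104 and 118 CPM (negative library). No test was run, since each library is 1 sample.

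In the negative library, 10 cells had a thinned Zscan4 UMI and 18 a GFP UMI. Ncl was at 2666 CPM (2504 to 2836) in the former and 2538 CPM (2425 to 2656) in the latter, against 3232 and 3234 CPM in the other cells. Nop58 was at 500 CPM (431 to 577) and 511 CPM (461 to 565), against 657 CPM in each case. Ubtf was at 112 CPM (80.5 to 151) and 94.1 CPM (73.4 to 119), against 117 CPM in each case. These intervals cover counting error only, and Ncl varied between cells beyond it, so sets of 10 and 18 cells decide nothing about a difference.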
